A study of Mus musculus with 23 samples.

Results

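Hepatocytes around the central vein of the liver lobule take up glutamate and ammonia and join them into glutamine. The mRNAs described here are those of 5 genes of this perivenous system, namely Glul, Oat, Rhbg, Slc1a2 and Slc1a4. They were taken by name from the symbol column of the array annotation, and they are 5 of 18193 genes with a probe set of their own. A probe set is the group of short probes that reports 1 transcript on these Affymetrix 3' arrays. The 5 genes had 12 probe sets assigned to a single gene: 2 for Glul, 1 for Oat, 1 for Rhbg, 5 for Slc1a2 and 3 for Slc1a4. A further Slc1a2 probe set was shared with another gene and was not used. All 12 passed the filter on low values, and the probe set with the highest mean signal, the leading one, stands for each gene.

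Ammonia that escapes the urea cycle of the periportal zone is caught by glutamine synthetase, the product of Glul, in a narrow ring of cells at the central vein. Wnt ligands from the endothelium of that vein activate beta-catenin in those hepatocytes, and Glul is the usual marker of the zone. Oat encodes ornithine aminotransferase, a mitochondrial enzyme that turns ornithine into glutamate semialdehyde and yields glutamate. Rhbg encodes an ammonia channel of the Rhesus family, Slc1a2 a high-affinity glutamate importer also known as GLT-1, and Slc1a4 the neutral amino acid exchanger ASCT1.

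Total liver RNA of male C3H mice was measured on 23 arrays in 4 groups. Wild-type livers without phenobarbital (n = 5) and with it (n = 4) were set beside livers in which hepatocytes lacked Ctnnb1, the beta-catenin gene, without phenobarbital (n = 7) and with it (n = 7). In the knockout, Cre recombinase driven by the albumin promoter cut a Ctnnb1 allele with loxP sites in its introns, on a background backcrossed to C3H, and the labels do not say whether the wild-type mice carried Cre or the loxP allele. Treated mice received 0.05% phenobarbital, a barbiturate that activates the nuclear receptor CAR, in the diet for 12 weeks, and controls had no phenobarbital (a phenobarbital-free diet in the treatment description, water in the sample labels). Cells in which Cre was never active keep an intact Ctnnb1 in this model, and the labels do not say which liver cells these are. The labels number the samples but do not say that each came from a separate animal, so a p-value here reflects the spread among samples, which may be technical.

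Signals are on a log2 scale, with array medians between 5.09 and 5.14. Hepatocyte markers averaged 13.77 to 14.07 in every array. Ctnnb1 itself stood at 12.20 ± 0.024 (SD) in wild-type and 12.25 ± 0.11 in knockout controls (adjusted p = 0.538, limma). The position of its probes relative to the deleted part is not given, so this does not check the genotype. Knockout controls were the least alike, with a lowest correlation between 2 arrays of 0.945, against 0.968 to 0.995 in the other groups. Knockout control replicates 2, 6 and 7 had the lowest array weights of their group, and results that rest on them are given with and without them. Macrophage markers were higher in the knockout. Their mean signal was 6.93 to 7.63 per array in wild-type controls, 6.93 to 7.12 in treated wild type, 7.76 to 10.35 in knockout controls and 7.62 to 9.82 in treated knockout. Of the 10 markers, 9 rose in the knockout without phenobarbital (14.8% of all genes rose) and 8 with it (11.9%), and none lay below the filter level in all arrays of a group. In the untreated knockout 5 of 7 tested stellate cell markers, 5 of 6 endothelial, 2 of 4 cholangiocyte and 1 of 3 lymphocyte markers rose as well.

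The promoter windows of Slc1a2 and Glul are shown because these genes are the glutamate importer and the glutamine-forming enzyme of the zone and held different motifs. Windows of 250 bases upstream of the listed start were read from RefSeq (GRCm38.p6) for 4 of the 5 genes, not for Rhbg. Capitals mark matches to CTTTGA, the core of the site bound by the TCF/LEF partners of beta-catenin, or to its reverse complement TCAAAG. The Slc1a2 window is chr2:102706188-102706437 on the plus strand and the Glul window chr1:153899679-153899928 on the plus strand.
Slc1a2: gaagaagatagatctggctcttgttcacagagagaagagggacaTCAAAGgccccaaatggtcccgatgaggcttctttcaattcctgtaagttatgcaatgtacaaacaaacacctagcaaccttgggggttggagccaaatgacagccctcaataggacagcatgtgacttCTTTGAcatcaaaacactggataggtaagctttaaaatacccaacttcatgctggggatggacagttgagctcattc
Glul: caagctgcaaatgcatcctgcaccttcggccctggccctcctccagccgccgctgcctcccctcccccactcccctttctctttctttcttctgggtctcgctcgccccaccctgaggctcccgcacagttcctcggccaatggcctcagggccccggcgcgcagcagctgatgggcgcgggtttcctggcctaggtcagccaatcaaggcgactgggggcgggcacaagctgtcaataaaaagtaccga

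Slc1a2 held CTTTGA on the minus strand at 206 to 201 bases before the start and on the plus strand at 77 to 72 bases before it. No match to CTTTGA or to CTTTGT was found on either strand in the Glul window, nor in those of Oat and Slc1a4. Across 32851 RefSeq promoter windows of this length, 13.8% held CTTTGA and 16.5% held CTTTGT. The Glul window held AGGTCA, a motif of nuclear receptors, at 57 to 52 bases before the start, found in 14.02% of all windows. It also held CCAAT at 113 to 109 and at 50 to 46 bases before the start, and CCAAT was in 33.8% of windows. These matches describe letters in a short window and do not show binding.

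The first comparison asked how far each transcript depends on beta-catenin in untreated liver. All 5 genes fell in the knockout (limma over 13826 genes, Benjamini-Hochberg adjusted p under 0.05), where 10.1% of all genes tested were lower by the same rule. Signal in the knockout was 5.38% of wild type for Oat, 8.78% for Glul, 18.3% for Slc1a2, 38.8% for Rhbg and 50.2% for Slc1a4. For each gene the highest knockout array lay below the lowest wild-type array, which 3.65% of all genes did. The 5 genes were chosen with earlier results of these data known, so neither share makes an independent test of them. In whole-tissue RNA, fewer cells of a type and less RNA per cell cannot be told apart.

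Glul, which condenses glutamate with ammonia, read 12.27, 12.36, 12.13, 12.48 and 12.36 log2 units in the 5 wild-type controls. In the 7 knockout controls it read from 8.07 to 9.87, with a median of 8.84. The wild-type arrays were tightly grouped, whereas the knockout arrays spread over 1.79 log2 units and stayed far below them. The log2 change was -3.51 (SE 0.27, 95% interval -4.07 to -2.95, adjusted p = 6.5e-09), which left 5.96% to 12.96% of the wild-type signal. A second Glul probe set, 1426235_a_at, fell by 3.73 (SE 0.25), so both reported a similar loss. Without knockout control replicates 2, 6 and 7 the change of Glul was -3.96.

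Oat, which feeds ornithine carbon into glutamate, had 11.83, 12.12, 12.60, 12.69 and 11.75 in wild-type controls and 7.35 to 8.64, with a median of 8.12, in knockout controls. Wild-type replicates 3 and 4 were highest, and the groups were more than 3 log2 units apart. The change was -4.22 (SE 0.21, adjusted p = 3.5e-12), the fifth lowest of 13826 genes. Glul ranked 12 in that order, Slc1a2 22, Rhbg 69 and Slc1a4 116.

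Rhbg, the ammonia channel, had a single probe set, with 7.02, 6.82, 6.59, 6.75 and 6.58 in wild-type controls. The knockout controls lay between 5.17 and 5.61 with a median of 5.42. Both groups were narrow, and the gap between them exceeded the range of each. The change was -1.37 (SE 0.13, adjusted p = 1.24e-07).

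Slc1a2, the glutamate importer, had 7.89, 6.78, 6.66, 7.13 and 7.60 in wild-type controls and 4.50 to 5.25, with a median of 4.60, in knockout controls. Wild-type replicates 1 and 5 were highest. The knockout signals were close to the filter level, the 40th percentile of an array, which averaged 4.56, and 1 of the 7 arrays lay at or below it. The change was -2.45 (SE 0.18, adjusted p = 3.82e-09). All 5 Slc1a2 probe sets fell, with changes of -0.32 to -2.94, and the mean of the 5 gave a change of -1.56. All 12 probe sets of the 5 genes fell, where 9.76% of all probe sets were lower. Probe sets of the same gene are not separate support. Slc1a2 probe sets 1433094_at and 1459014_at stood only 0.41 and 0.46 above the filter level in wild-type controls, and their groups overlapped. Probe sets 1438194_at and 1439940_at lay at or below the filter level in all 14 knockout arrays and passed through wild-type arrays alone. Both could thus only come out lower and add nothing to the count of 12. For this pair the changes of -2.94 and -1.65 carry no measured lower end. Set against that level in place of the knockout mean, their wild-type signals were 2.56 and 1.04 log2 units higher.

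Slc1a4, the neutral amino acid exchanger, showed the smallest change of the 5 genes. Its leading probe set had 6.99, 6.94, 7.34, 6.84 and 6.65 in wild-type controls and 5.62 to 6.32, with a median of 5.98, in knockout controls. The groups were separated by a narrow gap. The change was -0.99 (SE 0.12, adjusted p = 8.45e-06). The other Slc1a4 probe sets fell by 0.51 and 0.48, and there the arrays of the groups overlapped. The mean of the 3 probe sets gave -0.66. An exact two-sided permutation test over arrays gave p = 0.00126 for each of the 5 genes, the smallest that 792 splits can give (adjusted 0.00505 over 20 tests).

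**Figure D1:**
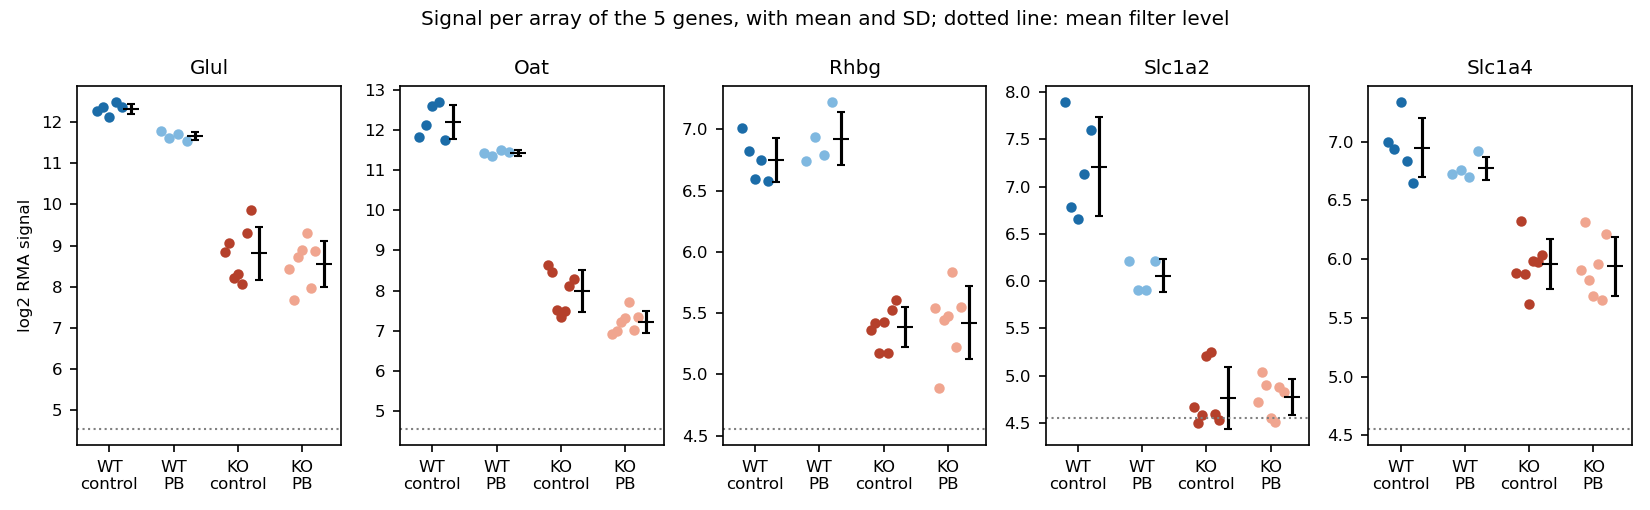
Log2 signal of the leading probe set of Glul, Oat, Rhbg, Slc1a2 and Slc1a4 in each array of the 4 groups (WT, wild type; KO, knockout; PB, phenobarbital), with the group mean and SD at the side. In every panel all knockout points lie below all wild-type points, and the Slc1a2 knockout points lie near the dotted filter level of 4.56.

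Under phenobarbital the genotypes were compared through the means of the treated arrays, which share no array with the untreated means. The SEs and adjusted p-values came from the limma fit of all groups, however. They thus draw on the untreated arrays too, and both genotype comparisons are not independent tests. All 5 genes fell again, with 8.12% of all genes lower, and the groups did not overlap for any of them (7.38% of all genes). Here too the genes were chosen with earlier results known, so the shares are a description. Oat read 11.42, 11.35, 11.51 and 11.44 in treated wild type and 6.93 to 7.70 in treated knockout, a change of -4.22 (SE 0.23, adjusted p = 1.06e-11). Glul read 11.78, 11.61, 11.70 and 11.54 against 7.68 to 9.30, a change of -3.10 (SE 0.29, adjusted p = 1.03e-07). Treated wild-type arrays were close together for both enzymes, and the Glul knockout arrays again spread widely.

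Rhbg changed by -1.50 (SE 0.14) under phenobarbital and Slc1a4 by -0.84 (SE 0.13), with adjusted p = 5.71e-08 and 0.000149. Slc1a2 changed by -1.28 (SE 0.20, adjusted p = 8.55e-05), from 6.21, 5.91, 5.90 and 6.21 in treated wild type to 4.51 to 5.04 in treated knockout. Its probe sets 1433094_at (-0.21) and 1459014_at (-0.10) did not pass (limma, adjusted p = 0.277 and 0.495). The mean of its 5 probe sets gave -0.70. The treated wild-type arrays of Slc1a2 lay below all 5 untreated wild-type arrays, while the treated knockout arrays lay within the range of the untreated ones. Exact permutation tests gave p = 0.00303 for each gene, the smallest that 330 splits can give.

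Phenobarbital in wild type was the third comparison. Slc1a2 fell, by 1.15 log2 units (SE 0.21, adjusted p = 0.00194), to 45.0% of the untreated signal (95% interval 33.3% to 60.8%). It was the only one of the 5 genes past the threshold, and 1.9% of all genes were lower. Its highest treated array, at 6.21, lay below its lowest control, at 6.66. Of its 5 probe sets 3 fell: 1451627_a_at, 1438194_at by 1.82 and 1439940_at by 0.76 (2.01% of all probe sets were lower). The remaining probe sets changed by -0.19 and -0.06 (limma, adjusted p = 0.583 and 0.864). For 1439940_at the groups overlapped, with 4.58 to 5.14 in treated and 5.08 to 6.11 in untreated wild type. Its lowest treated array lay next to the filter level.

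Among the untreated wild-type arrays the SD was 0.53 for Slc1a2, 0.43 for Oat, 0.25 for Slc1a4, 0.18 for Rhbg and 0.13 for Glul. Probe set 1438194_at read 8.33 and 8.18 in replicates 1 and 5 against 6.21, 6.25 and 6.54 in replicates 2, 3 and 4, and the leading probe set was highest in the same pair. Probe set 1439940_at did not show that order, with 5.61, 5.62, 5.51, 6.11 and 5.08. Oat was lowest in replicates 1 and 5, and macrophage markers were highest there, at 7.63 and 7.56 against 6.93 to 7.25. The part of this variation in the phenobarbital change was not tested.

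Glul and Oat were lower with phenobarbital in wild type, without passing the test across all genes. Glul was at 12.32 ± 0.13 (SD, n = 5) without and 11.66 ± 0.10 (n = 4) with phenobarbital, a change of -0.66 (SE 0.31, adjusted p = 0.304). Its wild-type groups did not overlap, nor did those of Slc1a2 and Oat, which 5.56% of all genes matched. The SE comes from all 4 groups, and the knockout groups had SDs of 0.65 and 0.57. In a fit on the wild-type arrays alone Glul passed (adjusted p = 0.000595), and the exact permutation p was 0.00794, the smallest that 126 splits can give (adjusted 0.0132 over 20 tests). The second Glul probe set changed by -0.29 (adjusted p = 0.714), and its groups overlapped.

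Oat was at 12.20 ± 0.43 without and 11.43 ± 0.067 with phenobarbital in wild type, a change of -0.77 (SE 0.24, adjusted p = 0.0895). It passed in the fit on wild-type arrays alone (adjusted p = 0.03) and with array weights (adjusted p = 0.0193), and the exact permutation p was 0.0238 (adjusted 0.034). Rhbg (0.17, 95% interval -0.13 to 0.47) and Slc1a4 (-0.18, interval -0.47 to 0.12) had overlapping groups and adjusted p-values of 0.664 and 0.646. These intervals do not exclude small changes of either gene.

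**Figure D2:**
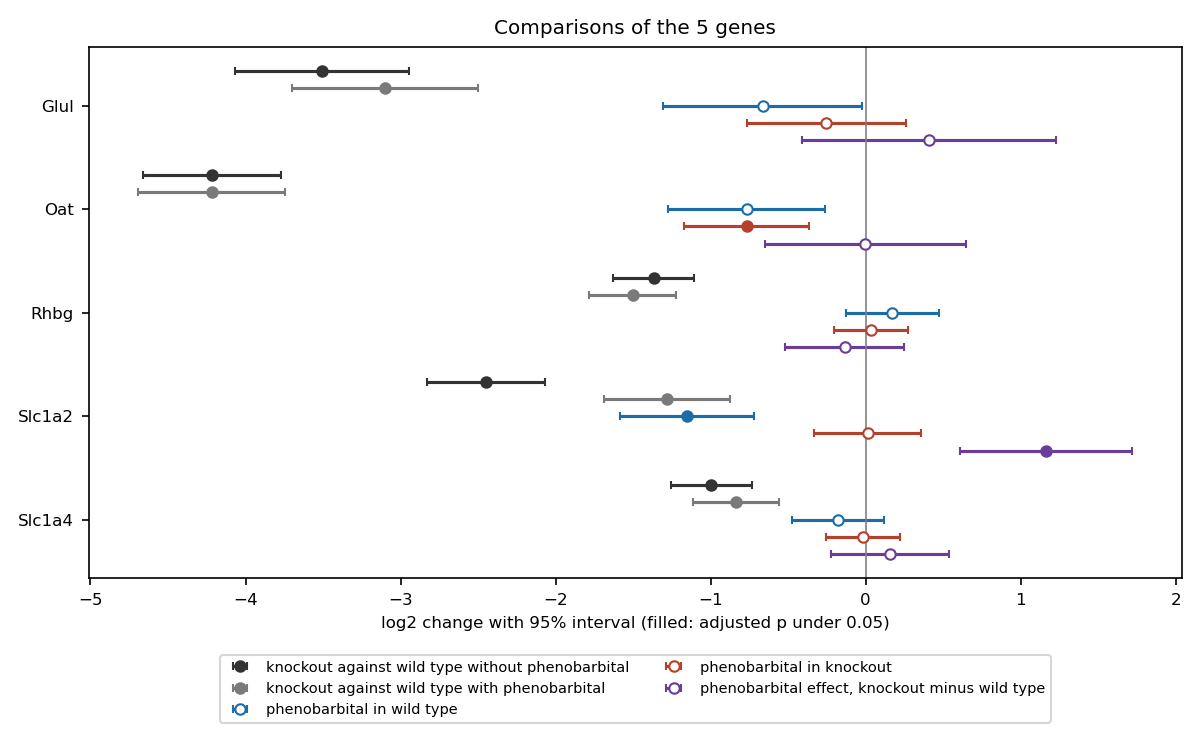
Log2 change with its 95% interval for Glul, Oat, Rhbg, Slc1a2 and Slc1a4 in 5 comparisons, filled where the adjusted p was under 0.05. Both genotype comparisons lie left of 0 for every gene, and among the phenobarbital changes Slc1a2 in wild type (-1.15) and Oat in knockout (-0.77) are filled.

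Phenobarbital in the knockout was tested next. Oat fell by 0.77 (SE 0.19, adjusted p = 0.0397), from 7.98 ± 0.52 to 7.21 ± 0.27 (n = 7 each), and 0.882% of all genes were lower. The groups overlapped, since the 3 lowest controls, at 7.35, 7.50 and 7.52, lay within the treated range. The exact permutation p was 0.00699 (adjusted 0.0127). The call was lost without knockout control replicates 2, 6 and 7, where the change was -0.54 (limma, adjusted p = 0.162), and under array weights (-0.61, adjusted p = 0.0916). Replicates 2, 6 and 7 read 8.47, 8.12 and 8.29, above their group mean, so leaving them out had to shrink the change. Leaving out single arrays kept the change between -0.87 and -0.66, and the call was lost in 13 of 23 such fits: without knockout control 1, 2, 6 or 7, treated knockout 1, 2, 3, 4, 6 or 7, or treated wild type 1, 3 or 4. Glul (-0.25, adjusted p = 0.701), Rhbg (0.04, 0.924), Slc1a2 (0.01, 0.984) and Slc1a4 (-0.02, 0.964) did not pass.

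The difference between both phenobarbital changes was tested as an interaction. For Slc1a2 the change in the knockout was 1.16 log2 units above that in wild type (SE 0.27, 95% interval 0.61 to 1.72, adjusted p = 0.0347), where 0.354% of all genes were higher. Of its probe sets 3 of 5 passed (0.394% of all probe sets were higher), with differences of 1.16, 1.88 (1438194_at) and 0.81 (1439940_at). In the knockout these probe sets were at or near the filter level without phenobarbital. The leading one was 0.22 above it, 1438194_at 0.38 below it and 1439940_at 0.61 below it. The latter pair lay at or below it in every knockout array, so their differences restate the wild-type changes and are no separate support. A fall below that level could not be measured there, and its part in the interaction was not tested. On the leading probe set knockout control replicates 2, 6 and 7 read 4.50, 4.60 and 4.53, below their group mean of 4.76. Leaving them out therefore had to shrink the difference. The call was lost without them (0.998, limma, adjusted p = 0.0779). It was also lost in 15 of 23 fits without a single array, with differences from 0.995 to 1.30: without knockout control 1, 2, 3 or 6, treated knockout 1, 2, 3, 6 or 7, wild-type control 1 or 5, or any treated wild type.

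The phenobarbital changes of Oat were nearly equal in both genotypes, with a difference of -0.0012 (SE 0.31, interval -0.65 to 0.65). That interval is wide enough to hold differences of up to 0.65 in either direction. The differences of Glul (0.41, adjusted p = 0.837), Rhbg (-0.14, 0.897) and Slc1a4 (0.16, 0.876) did not pass.

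**Figure D3:**
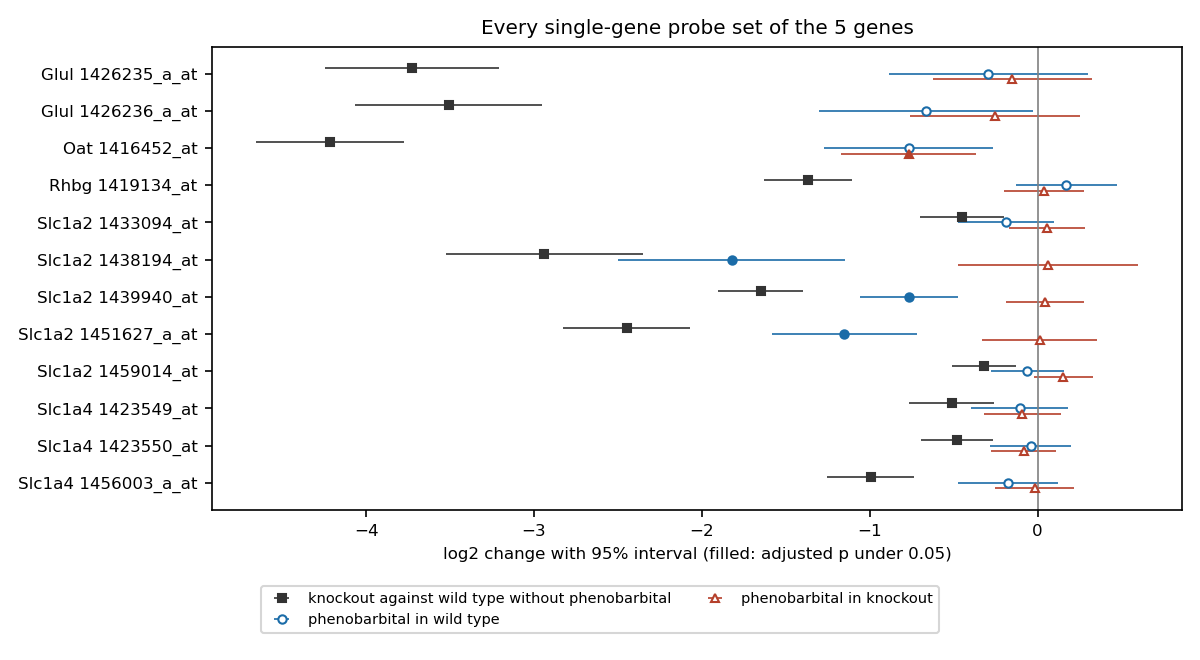
Log2 change with its 95% interval for each of the 12 probe sets of Glul, Oat, Rhbg, Slc1a2 and Slc1a4, in the untreated genotype comparison and with phenobarbital in each genotype. All 12 squares are filled and lie below 0, and among the wild-type phenobarbital circles 3 of the 5 Slc1a2 probe sets are filled. The squares of 1438194_at and 1439940_at could only lie below 0, since their knockout arrays were all at or below the filter level.

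What remained of Glul in the knockout differed between arrays, and it moved with the macrophage markers, though not with them alone. Knockout controls 3, 4 and 5 had macrophage means of 7.76, 7.87 and 7.87 and Glul at 8.21, 8.32 and 8.07. Knockout controls 1, 2, 6 and 7 had macrophage means of 9.52, 10.06, 10.35 and 9.73 and Glul at 8.84, 9.06, 9.30 and 9.87. Oat followed the same split, with 7.52, 7.35 and 7.50 against 8.64, 8.47, 8.12 and 8.29. The macrophage values of these controls fall into separate clusters, so no correlation was computed over them.

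In the 7 treated knockout arrays the macrophage means were spread out, and the relation was examined after the values had been seen. Over 5 relations, Glul rose with the macrophage mean (Pearson r = 0.979, exact permutation p = 0.000198, adjusted 0.000992; Spearman rho = 1.0, p = 0.000397). Without the 2 arrays farthest from the median r was 0.92. Oat gave r = 0.844 (rho = 0.857, exact p = 0.0147 and 0.0238, adjusted p = 0.0245 for r) and 0.903 without those arrays. Rhbg gave r = 0.859 (rho = 0.821, exact p = 0.00456 and 0.0341, adjusted 0.0114 for r), but 0.483 without the 2 farthest arrays, so this relation rests on them. Slc1a2 was negative, with r = -0.789 (rho = -0.821, exact p = 0.0427 and 0.0341, adjusted 0.0533 for r and 0.0427 for rho) and -0.575 without them. Its signals there averaged only 0.22 above the filter level, so this relation was read near background. Slc1a4 gave r = -0.159 (rho = -0.0714, exact p = 0.724 and 0.906) and 0.0851 without them. The share of all genes with correlations of these sizes is not given, so the p-values do not set the 5 genes apart.

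In treated knockout 5, where Glul was highest, stellate cell, cholangiocyte, endothelial and lymphocyte means were 7.77, 5.62, 7.51 and 5.04. They were 7.07, 5.02, 7.19 and 4.51 in treated knockout 2, where Glul was lowest. The relation is thus not shown to be particular to macrophages, and no correlation was computed for these other markers. The part of macrophages or other cells in the residual signals was not tested. Without the 3 knockout controls of low weight the genotype differences of Glul and Oat were -3.96 and -4.45. These 3 arrays read highest in their group for Glul and above the group mean for Oat. Leaving them out therefore had to enlarge both differences, which says nothing about macrophages. Among the members themselves, 20 correlations were computed within the knockout groups, and none passed after adjustment. The highest was that of Glul with Rhbg in treated knockout (r = 0.931, rho = 0.821, exact p = 0.00278 and 0.0341, adjusted 0.0556 for r), with r = 0.731 without the 2 farthest arrays.

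**Figure D4:**
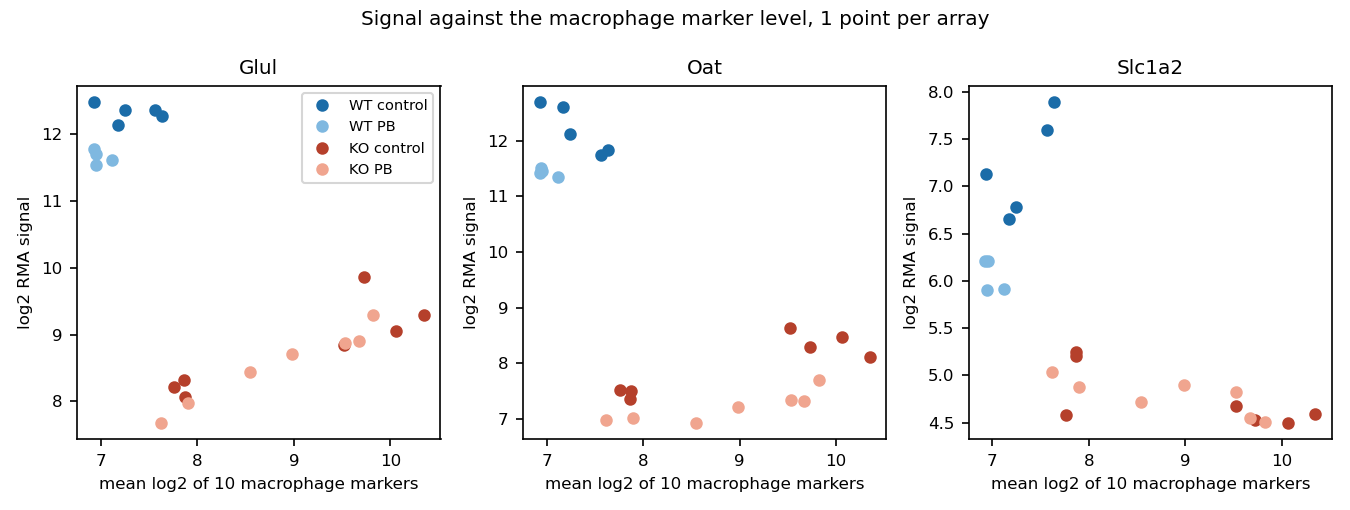
Log2 signal of Glul, Oat and Slc1a2 in each array against the mean log2 signal of 10 macrophage markers, coloured by group. Within the knockout points Glul and Oat are higher at high marker levels (Glul r = 0.979 in the 7 treated arrays), and all knockout points stay below the wild-type points.

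The genes closest in pattern were found by Euclidean distance over all 23 arrays, after each gene was centred on its wild-type control mean. Nearest to Slc1a2 was Lgr5, a Wnt target gene, at a distance of 2.22, where a flat profile lay 9.53 away. Lgr5 changed by -2.12 in the untreated knockout, by -1.01 with phenobarbital in wild type and by 0.09 in the knockout, and its phenobarbital interaction was 1.09 (adjusted p = 0.00378). Lgr5 lay at or below the filter level in 10 of the 14 knockout arrays. Dpy19l3 and Lhpp followed at 2.23 and 2.47.

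Nearest to Glul were Slc13a3, a dicarboxylate transporter (2.35), Tenm3 (2.41) and the transcription factor Tbx3 (3.57), against 13.84 for a flat profile. In the knockout Tenm3 and Tbx3 lay at or below the filter level in all 14 arrays and Slc13a3 in 9 of them, so their knockout values carry little beyond background. Oat was nearest to Gulo (2.17), Tbx3 (2.42) and the vasopressin receptor Avpr1a (3.29, at or below the filter level in 3 of the 14 knockout arrays), against 17.4. Gulo, an enzyme of vitamin C synthesis, changed by -3.97 in the untreated knockout, by -0.90 with phenobarbital in the knockout and by -0.30 with phenobarbital in wild type, where Oat changed by -0.77. Rhbg was nearest to Blvrb (1.31), Gstm6 (1.36) and 1810058I24Rik (1.36), against 5.15, and Slc1a4 to Dmxl2 (1.29), 1810058I24Rik (1.36) and Dclre1a (1.36), against 3.89.

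Likeness within the 14 knockout arrays, by correlation after centring on group means, named other genes. For Glul these were Fxyd5 (r = 0.986), Gbp8 (0.985), a guanylate-binding protein gene, and Map3k8 (0.982), a kinase of inflammatory signalling. Gbp8 was 3.49 log2 units higher in the untreated knockout, opposite to Glul. For Oat the genes were Kcnk6 (0.904), Ube2v1 (0.904) and Atp6v1g1 (0.897), and for Rhbg Guca1a (0.889), B2m (0.88), the light chain of MHC class I, and Psmb1 (0.879). Slc1a2 was most like Slc8a3 (0.919), Serpina11 (0.864) and Vsig2 (0.85), and Slc1a4 most like Foxh1 (0.813), Ntng1 (0.767) and Ptpra (0.731). These are the highest correlations among 13826 genes, all read from the same 14 arrays, whose macrophage levels differ, and they are a description.

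None of the other Rh and Slc1 genes passed the test in the untreated genotype comparison, where 25% of all genes passed in either direction. Of the Rh family, Rhcg changed by -0.20 (adjusted p = 0.0581) and Rhd by -0.12 (adjusted p = 0.354), and Rhag did not pass the filter. Between the treated genotypes Rhcg was lower in the knockout, with a difference of -0.24 (SE 0.081, adjusted p = 0.0412). Of the Slc1 family, Slc1a1 (0.10, adjusted p = 0.757), Slc1a3 (-0.15, 0.177) and Slc1a5 (-0.02, 0.865) did not pass. Slc1a2 and Slc1a4 were the 2 of 6 tested members that fell (10.1% of all genes were lower). Whether they differed from their relatives was not tested.

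Of other glutamine transporters 2 of 7 rose and 2 fell in the untreated knockout, where 14.8% of all genes rose and 10.1% fell. Slc7a8 (0.52) and Slc38a1 (0.19) were higher, and the large neutral amino acid carrier Slc7a5 (-0.43, adjusted p = 0.000314) and the liver carrier Slc38a4 (-0.29, adjusted p = 0.0452) were lower. Slc38a3, the main system N glutamine carrier of hepatocytes, changed by 0.06 (adjusted p = 0.728) and Slc38a2 by -0.07 (adjusted p = 0.7). With phenobarbital in wild type Slc38a4 fell by 0.46 and Slc7a5 by 0.38 (adjusted p = 0.029 and 0.0116). In the treated comparison of genotypes, Slc38a3 was 0.43 higher in the knockout (adjusted p = 0.0244).

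On the periportal side 1 of 8 tested genes of the glutaminase and urea cycle list rose and 2 fell in the untreated knockout, against 25% of all genes called in either direction. Cps1, which commits ammonia to the urea cycle, changed by 0.01 (SE 0.040, adjusted p = 0.873) in the untreated knockout and fell by 0.19 (SE 0.046, adjusted p = 0.0204) with phenobarbital in wild type. Asl rose by 0.36 and Nags and the citrin gene Slc25a13 fell by 0.22 and 0.36. Gls2, the liver glutaminase, had no probe set of its own. In glutamate, ornithine and proline metabolism 1 of 11 genes rose and 2 fell, against the same 25%: Aldh18a1 by 1.58 (SE 0.53, adjusted p = 0.0327), with overlapping groups, Prodh by -1.32 (SE 0.22, adjusted p = 0.000173) and Glud1 by -0.43 (SE 0.081, adjusted p = 0.000718). Prodh, which starts proline breakdown, and Glud1, which releases ammonia from glutamate, were lower in the knockout among treated mice too, with differences of -0.95 and -0.37. The mitochondrial glutamate carrier gene Slc25a22 fell by 0.41 with phenobarbital in wild type (adjusted p = 0.0193).

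Among enzymes that take nitrogen from glutamine, 1 of 10 rose and 1 fell in the untreated knockout, against 25% of all genes called in either direction. These were Pfas (0.22) and Asns (-1.38, SE 0.39, adjusted p = 0.0129). Over these 6 lists without the 5 members, 42 genes were tested and 12 passed in the untreated genotype comparison, 28.6% against 25% of all genes. The median change of the 42 was -0.01, against -0.0047 over all genes. That count was 5 without knockout control replicates 2, 6 and 7. It fell to 6 or 7 without wild-type control 1 or 4 or knockout control 1 or 6. In the treated comparison 7 passed (16.7% against 20%), and 3 or 4 did without treated wild type 1, 2 or 3.

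With phenobarbital in wild type 4 of the 42 passed, all lower (9.52% against 3.85% of all genes in either direction), a count of 1 without treated wild type 1, 2 or 3 and 2 without wild-type control 3. In the knockout, and for the interaction, limma called 0 of the 42, where 6 and 3 had an unadjusted p under 0.05, and 2.05% and 0.875% of all genes passed in either direction. With array weights 4 and 1 passed. Of the reference list of perivenous genes, chosen with their loss in these data known, 13 of 14 tested fell in the untreated knockout (10.1% of all genes were lower), with a median change of -1.86. That choice largely fixed the count beforehand, so it is no separate support. The lowest were Cyp2e1 (-5.05), Lect2 (-5.00), Tbx3 (-4.27) and Rgn (-4.21). Tbx3 lay at or below the filter level in all 14 knockout arrays and passed the filter through wild-type arrays alone. Its mean in wild-type controls was 2.93 above that level. With phenobarbital in wild type 3 of the 14 fell (1.9% of all genes), namely Lgr5 by 1.01, Avpr1a by 0.77 and Tbx3 by 0.66.

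**Figure D5:**
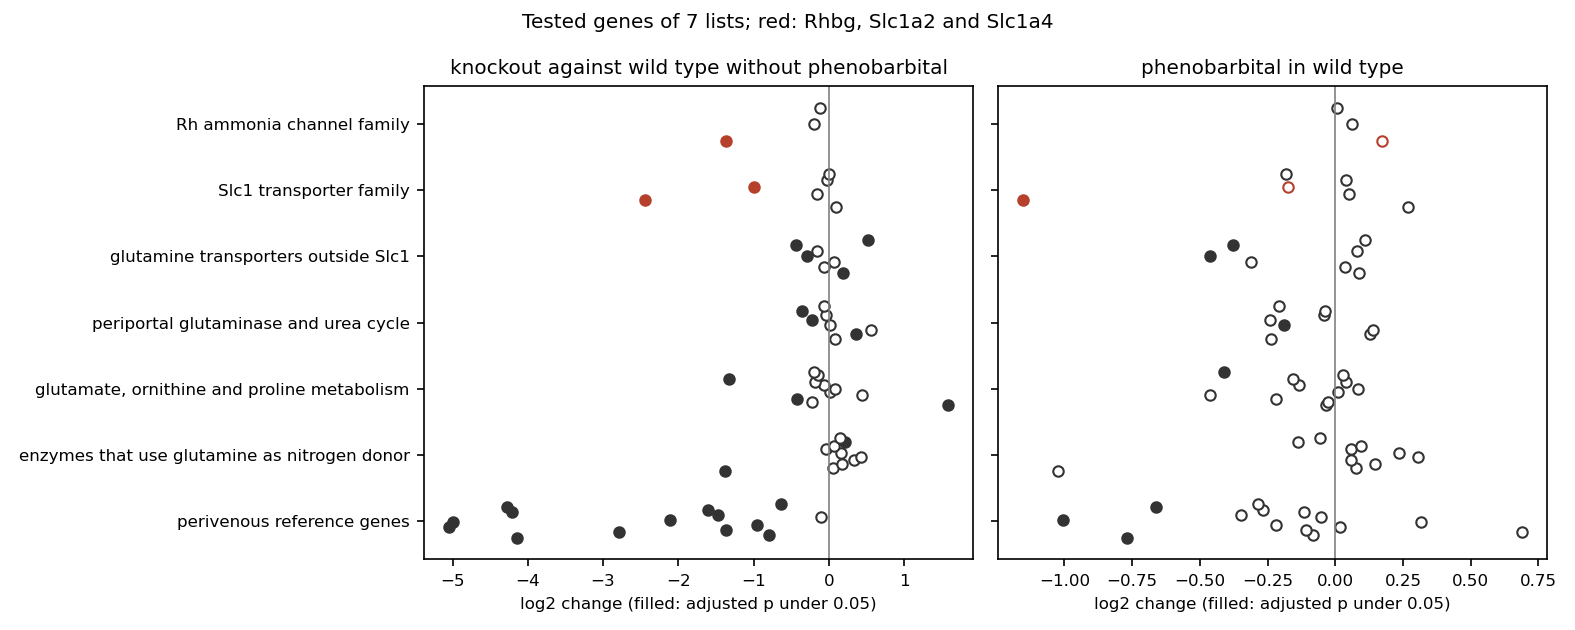
Log2 change of each tested gene in 7 lists, in the untreated knockout against wild type and with phenobarbital in wild type, filled where the adjusted p was under 0.05. In the left panel Rhbg, Slc1a2 and Slc1a4 (red) and 13 of 14 perivenous reference genes lie left of 0 and are filled, while most other genes lie near 0. The reference genes were chosen with their loss in these data known.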

How the data were processed

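Liver RNA of 23 samples in 4 groups was hybridised to 1 Affymetrix array each. The deposited values are log2 signals for 45037 probe sets, made by the authors with RMA and the affy package, per the submitters' processing notes. RMA corrects background, equalises the distributions of arrays and summarises probes, so it compresses low signals, and which arrays were normalised together is not given in the sources used here. Of the probe sets, 34945 had a single gene, 932 several and 9160 none, and 0 columns of other samples were left aside.

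Each gene was represented by its probe set with the highest mean, the leading one. Genes above the 40th percentile of an array in at least 4 arrays were tested, 13826 of 18193. All 23 arrays entered 1 limma fit (R 4.3.3, limma 3.58.1) with 1 mean per group, two-sided, Benjamini-Hochberg over all genes, threshold 0.05. Probe sets were also fitted singly, over 24089. Exact permutation tests ran in Python 3.11.15 with scipy 1.17.1. The fit was tested on simulated data.

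The members and lists were chosen with earlier results of these data known. Named were the 5 genes and their probe sets, up to 4 called genes per list and comparison, 11 genes of the pathway whatever their result, and per gene the 3 nearest by each measure of likeness. Alternatives were the normalization, filter, choice of probe set, variance model, array weights, replicate block, samples in the fit and each array left out. The number of arrays limits the precision, and samples carried no batch label. Gene names were updated through RefSeq.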

Additional observations from a re-analysis of the deposited data

Results flagged for a closer look

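The phenobarbital change of Slc1a2 differed between the genotypes by the interaction test, at 1.16 log2 units (knockout minus wild type, adjusted p = 0.0347, limma). The knockout signals of this gene were near the filter level, as given above.

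For Slc1a2 probe set 1433094_at, a single array stood apart from its group in both wild-type groups. Replicate 4 of the controls read 5.57 and replicate 3 of the treated arrays 4.99, each the highest of its group by a gap beyond the 95% limit of Dixon's test. These were 2 of 48 combinations of probe set and group, and chance gives about 1 in 20. None concerned the 5 leading probe sets.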

How the results depend on the processing

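In both genotype comparisons all 5 genes kept their direction and their call under each of 34 alternatives, and so did Slc1a2 with phenobarbital in wild type. The alternatives changed other phenobarbital results, and the cause was not tested unless the setting left out samples. Fitted on only the groups compared, Glul (-0.66) and Oat (-0.77) passed with phenobarbital in wild type, and Oat in knockout did not (-0.77, adjusted p = 0.107). With array weights Oat passed in wild type (-0.74) and not in knockout (-0.61). Correlations of same-numbered arrays, after centring on group means, ran from -0.695 to 0.628, with both ends between the knockout groups. They showed no steady pairing by replicate number, but they cannot exclude one. With the replicate block, Oat with phenobarbital in knockout (-0.77, adjusted p = 0.103) and the interaction of Slc1a2 (1.12, adjusted p = 0.0929) lost their calls, the interaction of Oat was 0.030, and 6 pathway genes passed in the untreated genotype comparison. Without knockout control replicates 2, 6 and 7, chosen after seeing the data, Oat in knockout (-0.54) and the interaction of Slc1a2 (0.998) lost their calls. Both values had to shrink, given where these arrays lay in their group.

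The signs that turned belonged to values that had passed no test. The phenobarbital change in knockout became 0.0026 (quantile normalization), 0.032 (array weights) and 0.10 (without replicates 2, 6 and 7) for Slc1a4, -0.054 (array weights) and -0.15 (without replicates 2, 6 and 7) for Slc1a2, and, from -0.25, 0.19 for Glul (without replicates 2, 6 and 7). The interaction of Oat became 0.0087 (quantile normalization), 0.0085 (median centring), 0.12 (array weights) and 0.23 (without replicates 2, 6 and 7). With 1 array left out at a time, the change in knockout ranged from -0.87 to -0.66 for Oat, -0.033 to 0.13 for Rhbg, -0.032 to 0.094 for Slc1a2 and -0.081 to 0.044 for Slc1a4, and the interaction from -0.12 to 0.11 for Oat and 0.995 to 1.30 for Slc1a2. Among correlations, the sign turned without the 2 farthest arrays for Oat and Slc1a2 in knockout controls (from -0.71 to 0.0635), Glul and Slc1a4 (0.116) and Rhbg and Slc1a4 (0.691) in treated knockout and Slc1a4 with macrophage markers (0.0851), and with median centring for Oat and Slc1a4 (0.0271).

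The pathway genes that passed numbered 12, 7, 4, 0 and 0 (untreated genotype, treated genotype, phenobarbital in wild type, in knockout, interaction). With array weights they numbered 6, 13, 9, 4 and 1. In the untreated genotype comparison 5 passed with only the groups compared and 5 without knockout control replicates 2, 6 and 7, which gave 8 for phenobarbital in knockout. Single arrays left out gave 6 to 13, 3 to 8, 1 to 5, 0 to 1 and 0 to 1.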
